A study of Mus musculus with 4 samples.

Results

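Type 2 innate lymphoid cells (ILC2) were examined in single-cell RNA sequencing of the stromal vascular fraction of mouse inguinal white adipose tissue, the non-adipocyte cells released when a subcutaneous fat pad is digested. A barcode was taken as an ILC2 when it held at least 300 genes, at least 500 unique molecular identifiers (UMIs) and at most 10% mitochondrial UMIs, together with a lymphoid type 2 signature. The signature asked for at least 2 of the 6 genes Gata3, Il1rl1, Il13, Il5, Il2ra and Il17rb, at least 1 UMI of Il7r or Rora, and at least 1 UMI of Ptprc, which encodes the leukocyte antigen CD45. Barcodes with any UMI of Cd3e, Cd4, Cd79a, Pdgfra or Cpa3 were left out. This selected 120 of the 14931 barcodes past the cell filter. The cells were thus chosen by their measured values of these genes, which are given below as a description of the selection.

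Tissue was pooled from 7 control mice, given as C57BL/6, and from 8 mice of the line iAdFASNKO. The labels leave that name unexplained. It is known for a deletion of Fasn, the fatty acid synthase gene, that is induced in adipocytes, so ILC2 are not the cells in which the deletion is driven. The sources used here state neither age nor sex nor the inducing agent. The genotype of each count matrix was read from its name, and a wrong name would turn every direction below. Each pool was divided with magnetic beads into cells positive for lineage markers (Lin+) and the remaining cells (Lin-), which gave 4 droplet libraries of 3' ends, 1 for each genotype and fraction. With 1 library of pooled mice per group no test between genotypes was possible. All 95% intervals below cover counting error only, and no difference could be set against a spread between mice.

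ILC2 are tissue-resident lymphocytes without rearranged antigen receptors. They respond to epithelial and stromal alarmins such as interleukin 33, read by the receptor encoded by Il1rl1, and depend on the transcription factors GATA3 and RORα. In fat they are known as a source of interleukin 5, which sustains eosinophils, and interleukin 13, which promotes alternative activation of macrophages, and as producers of amphiregulin and of peptides that act on adipocytes and their precursors.

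Il5 and Il13 lie close together in the type 2 cytokine locus of chromosome 11. The 250 bases before each transcription start are shown because both cytokines helped to choose the cells and GATA3 is the factor most tied to the lineage. Sequences are from RefSeq, build GRCm38.p6, for Il13 chr11:53634703-53634952 on the minus strand and for Il5 chr11:53720544-53720793 on the plus strand, each written 5′ to 3′ along its gene. Capitals mark the GATA words, which are AGATAA or its variant AGATAG and likewise TGATAA or its variant TGATAG, searched on both strands with no overlap between matches.
Il13: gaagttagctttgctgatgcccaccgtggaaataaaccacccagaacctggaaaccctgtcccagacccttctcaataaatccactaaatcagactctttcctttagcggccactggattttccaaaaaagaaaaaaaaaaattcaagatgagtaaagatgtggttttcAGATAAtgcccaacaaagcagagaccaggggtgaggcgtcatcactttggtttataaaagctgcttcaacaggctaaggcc
Il5: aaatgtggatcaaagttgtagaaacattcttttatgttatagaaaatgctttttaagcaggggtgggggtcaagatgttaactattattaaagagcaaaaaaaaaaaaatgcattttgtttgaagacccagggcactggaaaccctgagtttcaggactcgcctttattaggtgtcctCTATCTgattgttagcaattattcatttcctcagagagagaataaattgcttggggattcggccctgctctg
Il13 held 1 match, which began 81 bases before the start, and Il5 held 1 match on the opposite strand, which began 72 bases before the start. At least 1 of these words was present in 26.5% of all 32851 promoter windows of this length, so a match is a description of the letters and not of a bound site.

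The libraries held 2922 to 4494 barcodes past the filter and 19725195 to 29503960 UMIs in these barcodes. Each pair of libraries shared 109 to 170 barcode sequences, and 1 ILC2, of Lin- control, had a barcode seen in another library. Before any comparison, 7 ILC2 stood apart, all of them in Lin- iAdFASNKO. They held at least 20 UMIs over marker lists of other cell classes, or at least 20 UMIs of 1 further gene foreign to lymphocytes, and are called mixed below. Of these, 3 carried Tagln and Acta2 of contractile cells with Fabp4, 2 were set apart by the further gene, 1 carried endothelial transcripts, and 1 carried collagen transcripts among only 1197 UMIs. Scrublet called 2 of the 7 as doublets and no other ILC2. This definition was set after the data had been seen, and results that rest on these barcodes are given with and without them.

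The Lin- libraries held 115 of the 120 ILC2. They made up 1.64% of the cells of Lin- control (51 of 3103, interval 1.23% to 2.16%) and 1.45% of Lin- iAdFASNKO (64 of 4412, 1.12% to 1.85%). The ratio of the shares, iAdFASNKO over control, was 0.88 (0.61 to 1.27), and the intervals of both libraries overlapped. Among barcodes with Ptprc, ILC2 were 26.7% of 191 in control. They were 19.0% of 337 in iAdFASNKO, which gave a ratio of 0.71 (0.52 to 0.98). Lin+ control held 3 ILC2 (0.103%) and Lin+ iAdFASNKO held 2 (0.0445%), and their shares had a ratio of 0.43 (0.07 to 2.59). A stricter cell filter turned the direction in Lin-, with 33 and 56 ILC2 and a ratio of 1.26.

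ILC2 of Lin- control were the more deeply read cells. They held a median of 4140 UMIs (1088 to 13011), and those of Lin- iAdFASNKO held a median of 2174.5 (727 to 13421), with 1514 and 1020.5 genes. The whole Lin- libraries differed in the same direction, with medians of 9138 and 4205.5 UMIs per barcode. When every barcode was thinned to 1500 UMIs, 27 and 33 ILC2 remained and the ratio of shares was 0.93 (0.56 to 1.55). A smaller number of cells from a type and a loss of its transcripts below the selection cannot be told apart here.

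**Figure D1:**
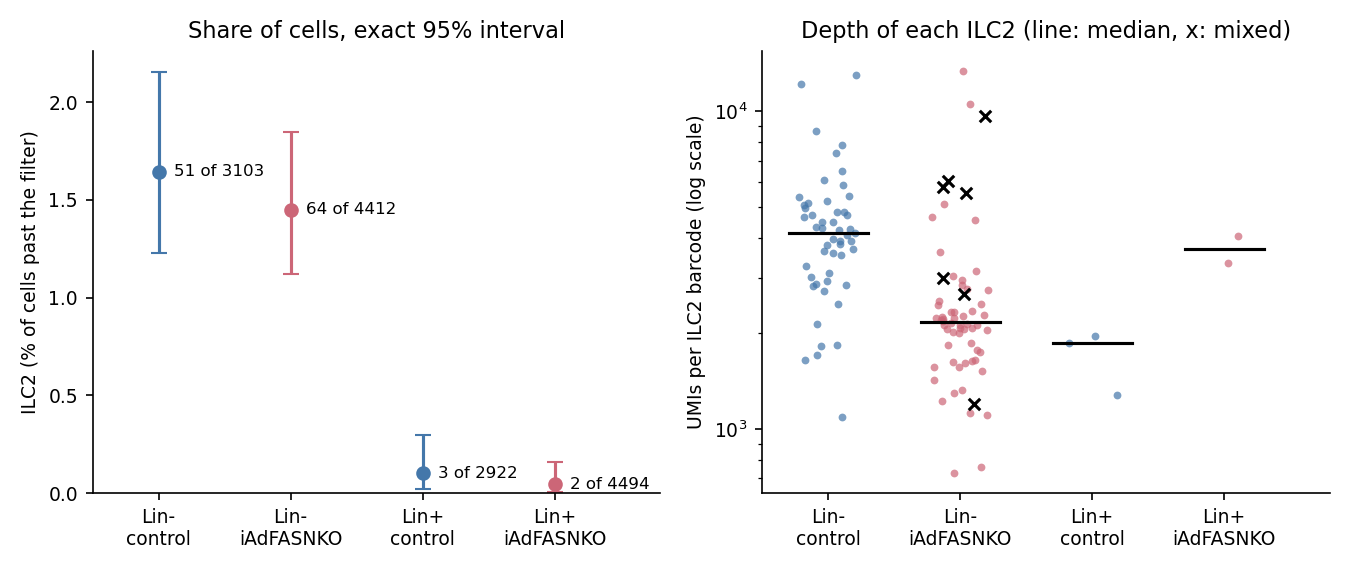
Left: ILC2 as a percentage of all barcodes past the filter in each of the 4 libraries, with exact 95% binomial intervals (counting error only) and the number of cells. Right: UMIs of each ILC2 barcode on a log scale, with the library's median as a line and the 7 mixed barcodes as crosses. The Lin- shares are 1.64% and 1.45% with overlapping intervals, and the control cells sit higher in depth (median 4140 against 2174.5).

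Among the selecting genes, Gata3 was detected in 44 of 51 control and 51 of 64 iAdFASNKO ILC2 of Lin-, and Il7r, the interleukin 7 receptor chain, in 50 and 61. Il1rl1 was detected in 38 and 31 cells, Rora in 39 and 38, and Il2ra, the high-affinity interleukin 2 receptor chain, in 31 and 31. At least 3 of these 5 markers were present in 47 of 51 and 51 of 64 cells. The selection was close to its threshold for many cells. In Lin- control 24 cells held exactly 2 of the 6 genes, 22 held 3 and 5 held 4, and in Lin- iAdFASNKO 37 held 2, 22 held 3, 4 held 4 and 1 held 5. Just outside it, with 1 of the 6 genes and all other conditions met, lay 14 control and 47 iAdFASNKO barcodes of Lin-, of which 8 and 21 held Gata3 and 0 and 5 held Il1rl1.

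Markers of other classes varied in the Lin- ILC2. No UMI of the 17 macrophage, dendritic and neutrophil genes was found. Foxp3, the factor of regulatory T cells, was at 0 in all 115. Cd3g, a chain of the T cell receptor complex, was present in 10 and 13 cells, Cd3d or Trac in 2 and 3, and Trbc1 or Trbc2, the receptor constant segments, in 32 and 38. The 15 NK and ILC1 genes gave 25 and 27 UMIs in all, 9 of them none, and Tbx21, their defining factor, 1 and 2. Genes of the ILC3 and IL-17 list were seen in 50 of 51 and 60 of 64 cells (1692 and 1342 CPM summed), nearly all from Ltb, Tmem176a and Tmem176b, while Il22, Il17f and Il23r were at 0. Progenitor and stromal genes were seen in 46 and 56 cells (740 and 1477 CPM summed), led by Gsn, Col3a1 and, in iAdFASNKO, Acta2, while Pdgfra was at 0 by the rule and Pi16 at 0. Their part in the results was not tested. In Lin+ the label fitted less well. Neither of the 2 Lin+ iAdFASNKO cells held Il1rl1 or Rora and 1 held Foxp3, while all 3 Lin+ control cells held Il1rl1 and 2 held Cd3g. The part played by T cells that lost Cd3e to low depth was not tested.

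ILC2 within a library were not alike. Il13 UMIs lay in 7 of 51 control and 14 of 64 iAdFASNKO cells and Il5 UMIs in 3 and 7, so that 10 and 19 cells held either cytokine and 0 and 2 held both. Areg, which encodes amphiregulin, lay in 19 and 15 cells, with up to 28 and 29 UMIs in 1 cell, and was found with Il13 in only 2 and 5 cells. Klrg1, a lectin-like inhibitory receptor of mature ILC2, and Arg1, the arginine-degrading enzyme arginase 1, occurred together in 21 control cells and 2 iAdFASNKO cells. Il18r1, the interleukin 18 receptor chain, and Itgae, the integrin CD103, occurred together in 5 and 17. Klrg1 and Il18r1 shared 1 cell in each library, although 41 of the 115 cells held Klrg1 and 36 held Il18r1. These counts follow depth as well as expression and are given as a description.

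ILC2 were set beside the other lymphocytes of the same mice. The comparison summed UMIs over both fractions of a genotype and took T cells as the 841 barcodes with Cd3e and Ptprc, and NK cells as 159 barcodes without Cd3e that held at least 2 of Ncr1, Klrb1c, Klre1, Klrd1, Eomes and Gzma. Since the rule separates these classes by expression, differences are a description. Levels are given as CPM, a gene's UMIs summed over the cells of a class and scaled to a common total. They were at least 4-fold higher in ILC2 than in T cells in both genotypes for 50 of 6067 genes with at least 20 UMIs (0.824%) and at least 4-fold lower for 76 (1.25%). Against NK cells 42 of 2705 genes were higher (1.55%) and 82 lower (3.03%). Of the type 2 effector genes, 3 of 7 were past 4-fold higher and 1 lower against T cells, and 3 of 5 higher and 2 lower against NK cells. Il13, which helped to choose the cells, is among these tested genes, so these counts are in part set by the selection. Of the neuropeptide, lipid and hormone receptors, 4 of 11 and 3 of 7 were higher and none lower, and of the immediate early and stress genes 4 of 28 and 5 of 28 were higher and none lower.

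Arg1 led the genes higher than in T cells, with 448 CPM in control and 124 in iAdFASNKO ILC2 and no UMI in any of the 841 T cells. Areg stood at 543 and 669 CPM in ILC2, at 15.6 CPM in control T cells and at 2.53 CPM in control NK cells. Its level was 34.9 times that of T cells in control (20.05 to 65.7) and 31.2 times in iAdFASNKO (22.9 to 42.7). Klrg1 was 15.8 (8.86 to 29.9) and 9.15 (4.64 to 17.4) times as high as in T cells. The ILC2 level thus exceeded the T cell level in both genotypes for each of these genes. Ptgir, the prostacyclin receptor, was 46.5 (11.6 to 406) and 36.9 (16.04 to 91.9) times as high, and rested on 2 and 9 UMIs in T cells. Cysltr1, a receptor for cysteinyl leukotrienes, was 7.48 (3.79 to 15.4) and 26.7 (14.3 to 51.1) times as high.

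Of the 20 genes leading against each class, 8 led against both, namely Areg, Arg1, Cxcl2, Cysltr1, Gadd45b, Ptgir, Ptpn13 and Rnf128. Rnf128 encodes a ubiquitin ligase of lymphocyte unresponsiveness, and Cxcl2 a neutrophil-attracting chemokine found in only 17 of the 120 ILC2. Nrgn, a calmodulin-binding protein better known from neurons, was 111 (29.2 to 935) and 104 (35.8 to 410) times as high as in T cells and was found in 30 ILC2. Ccr10, a chemokine receptor of skin-homing lymphocytes, was 25.5 (6.48 to 221) and 6.25 (2.44 to 20.4) times as high as in NK cells.

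Haemoglobin genes had the lowest ratios to T cells, with Hbb-bs, Hbb-bt and Hba-a2 at most 0.015 times the T cell level. Genes of T cells and of killing followed. Cd3d, Cd8a, Cd8b1, Lef1 and Cd247 were each at most 0.0782 times the T cell level in both genotypes, and Nkg7, Prf1 and Tyrobp at most 0.0338 times the NK cell level. All 15 genes of the NK list were at least 4-fold lower than in NK cells, several of which chose that class. Most T cells came from Lin+ and most ILC2 from Lin-. Within the Lin- libraries, with 22 and 55 T cells, 10 of the 20 genes leading against T cells were past 4-fold in both genotypes, and 12 of the 20 against NK cells. The counts fell to 20 higher and 10 lower against T cells and 31 and 29 against NK cells, with fewer genes tested. Within Lin- the 3 haemoglobin genes Hbb-bs, Hbb-bt and Hba-a2 were at 0 to 2 UMIs in either class.

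**Figure D2:**
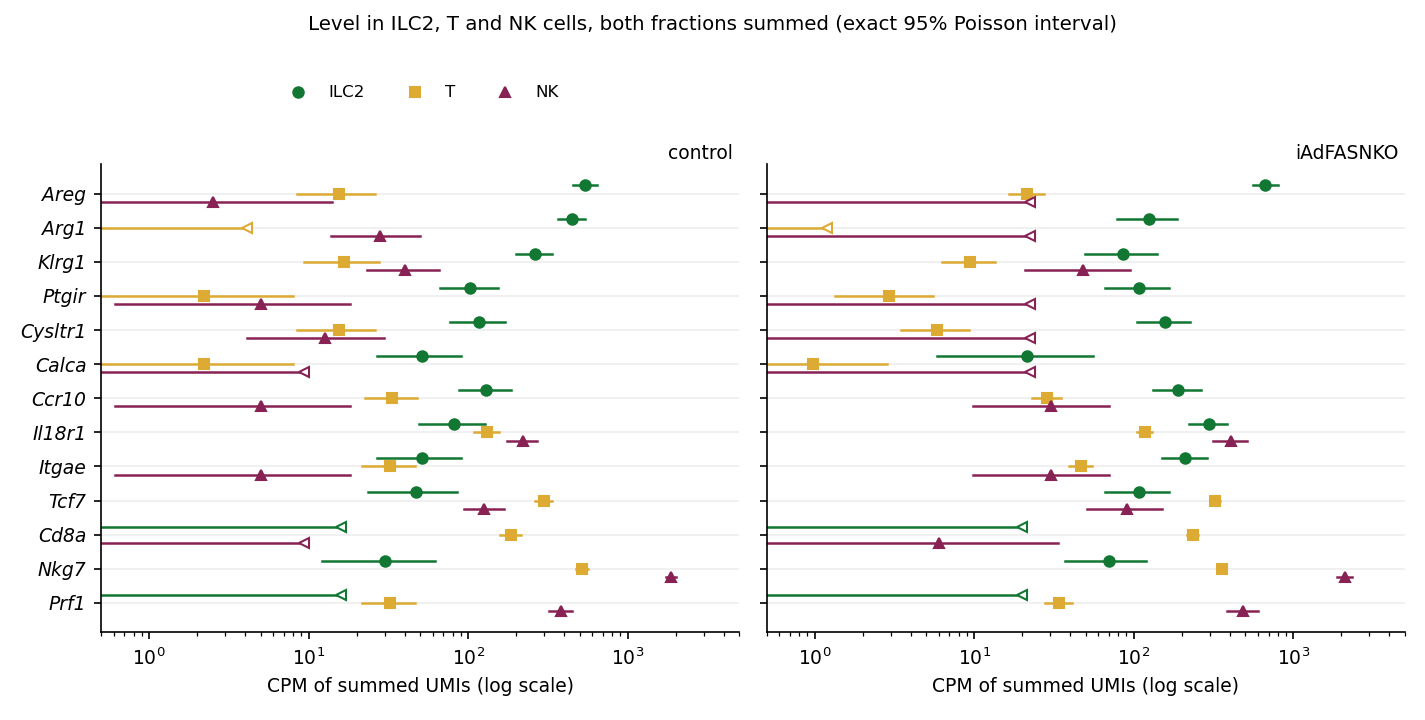
CPM on a log scale of 13 genes in ILC2 (circles), T cells (squares) and NK cells (triangles), UMIs summed over both fractions of a genotype, with exact 95% Poisson intervals; an open arrowhead is the upper limit of a class at 0. Areg, Arg1, Ptgir and Cysltr1 lie highest in ILC2 in both genotypes, and Nkg7 and Prf1 lie highest in NK cells.

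Between genotypes, ILC2 of Lin- iAdFASNKO held less Arg1, Klrg1, Plin2, Ltb4r1 and Alox5 and more Il18r1, Itgae and Il17rb than those of Lin- control. Gata3, Il7r, Il13 and Il5 differed by less than 2-fold, a limit that Il13 and Il5 passed under other settings given below. These genes took part in the choice of cells, as did Il17rb. Of 2810 genes with at least 20 UMIs over both libraries, 279 were at least 2-fold higher in iAdFASNKO (9.93%) and 158 at least 2-fold lower (5.62%). The count of each gene list below is to be read beside these shares. The median ratio of all tested genes was 0.13 on the log2 scale, and dividing by it gave 216 higher and 216 lower. Without the mixed barcodes, 208 of 2553 genes were higher (8.15%) and 150 lower (5.88%). The 7 mixed barcodes held 1197 to 9678 UMIs each, of 178089 in the ILC2 of Lin- iAdFASNKO, and these count in the total behind its CPM. Every ratio below is the CPM of iAdFASNKO over control within Lin-, with its counting interval, and the same ratio in other barcodes with Ptprc of the same libraries is given where it helps to place it.

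The genes furthest above control came from the mixed barcodes. Fabp4, a fatty acid carrier of endothelial and fat cells, gave 3 and 126 UMIs, 125 of them in mixed barcodes, a ratio of 53.5 (17.9 to 263). Without them 3 and 1 UMIs were left, too few for a direction. Tagln and Acta2, contractile proteins, had ratios of 18.2 and 11.1, which became 0.858 and 1.43. Igfbp5, Igfbp7, Cavin2, Mylk, Nfib, Notch3, Timp3 and Egr1 also owed most of their UMIs to these barcodes, with at most 10 UMIs left in each gene. These genes therefore say nothing of the other 57 ILC2 of that library.

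Among the type 2 effector products, 6 of 21 genes had 20 or more UMIs. None was past 2-fold higher and 3 were past 2-fold lower, and the list's median log2 ratio was -0.41. Without mixed barcodes 1 was higher (Il5), 2 were lower and the median was -0.13. Il13 gave 31 UMIs in control (137 CPM, 92.8 to 194) and 34 in iAdFASNKO (191 CPM, 132 to 267), a ratio of 1.40 (0.833 to 2.35). Il5 gave 10 UMIs (44.1 CPM) and 15 UMIs (84.2 CPM), a ratio of 1.91 (0.803 to 4.76). Both intervals include 1, and 3 and 7 cells carried all Il5. The log2 ratio of Il13 was 0.48, and was past 2-fold with 3 of the 6 genes required (1.37), without T cell transcripts (1.40) and as a mean of scaled cells (1.35). That of Il5 was 0.93, and was 1.19 with 3 of the 6 genes and 1.14 without mixed barcodes. An Il13 UMI was seen in 0.357% of T cells and an Il5 UMI in 0.119%. At 1500 UMIs per cell, where 50 control and 55 iAdFASNKO ILC2 were deep enough, the expected shares with Il13 were 7.71% and 17.0%. T cells held medians of 3487 and 1614 UMIs in Lin- and 3565 and 4148 in Lin+, control first, and NK cells 3658 and 1665.5 in Lin- and 3369 and 3302 in Lin+.

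Areg stood at 555 CPM in control. Its level in iAdFASNKO was 696 CPM, 1.25 times as high (0.971 to 1.62), and its log2 ratio of 0.33 was 1.45 with 3 of the 6 genes required. Csf2, a myeloid growth factor, gave 10 and 6 UMIs, and Calca, the precursor of calcitonin gene-related peptide, 12 and 4. Neither reached the minimum for a call.

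Arg1 was the effector gene with the most UMIs among those lower in iAdFASNKO. It gave 103 UMIs in control (454 CPM, 371 to 551), up to 18 in 1 cell, and 23 in iAdFASNKO (129 CPM, 81.9 to 194), up to 3 in 1 cell. The ratio was 0.285 (0.173 to 0.45), and 0.351 without mixed barcodes. A UMI was seen in 31 of 51 and 14 of 64 cells. At 1500 UMIs per cell the expected shares were 40.6% and 18.1%, and 1.26% of NK cells held a UMI. In the other barcodes with Ptprc the ratio was 0.288, from 21 and 6 UMIs, of which NK cells held 11 and 0 and T cells 0 and 0. These barcodes include those just outside the selection. Over all other barcodes of Lin-, with or without Ptprc, the Arg1 ratio was 0.105, from 234 and 18 UMIs. The lower level was thus also seen outside ILC2, and its cause was not tested. Arg1 (ENSMUSG00000019987) lies on chromosome 10 from 24915221 to 24927484 on the minus strand of mm10.

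Tnfsf11, the RANK ligand gene, gave 20 and 3 UMIs (ratio 0.191, 0.0364 to 0.644). Ccl5, a chemokine gene shared with T and NK cells, gave 51 and 18 (0.45, 0.247 to 0.783), and 0.555 without mixed barcodes, which is short of the fold. Their ratios in other barcodes with Ptprc were 0.378 and 0.872.

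**Figure D3:**
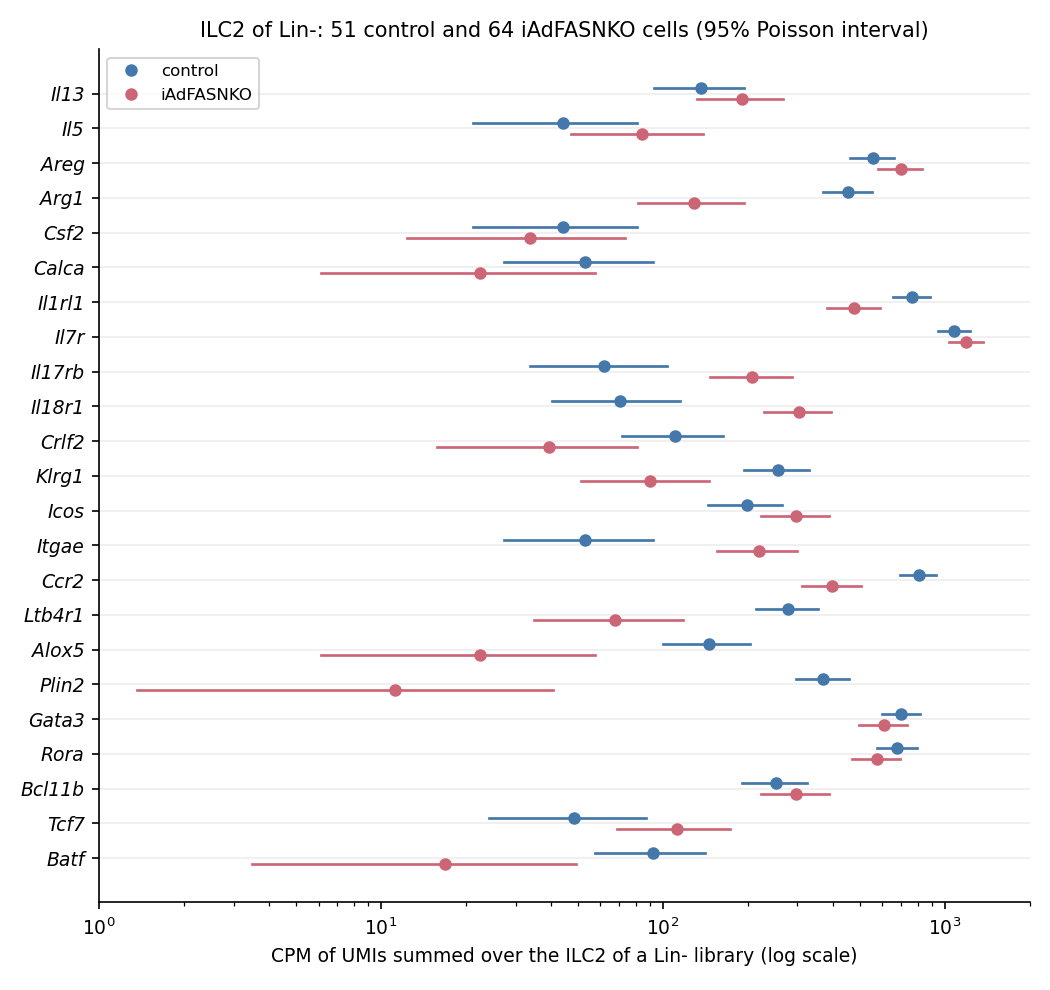
CPM on a log scale of 23 genes in the ILC2 of Lin- control (blue) and Lin- iAdFASNKO (red), UMIs summed over the cells of a library, with exact 95% Poisson intervals. The intervals lie apart for Arg1, Klrg1, Ltb4r1, Alox5, Plin2, Il1rl1, Ccr2 and Batf, lower in iAdFASNKO. They also lie apart for Il17rb, Il18r1 and Itgae, higher in iAdFASNKO, and overlap for Il13, Il5, Gata3 and Il7r.

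Among alarmin and cytokine receptors, 14 of 24 genes were tested. Of these, 2 were past 2-fold higher and 1 lower (all tested genes: 9.93% and 5.62%), with a median log2 ratio of 0.06. Il18r1 gave 16 UMIs in control (70.5 CPM, 40.3 to 115) and 54 in iAdFASNKO (303 CPM, 228 to 396). The ratio was 4.30 (2.42 to 8.05), and 4.43 without mixed barcodes. It was seen in 10 of 51 and 26 of 64 cells, and at 1500 UMIs per cell the expected shares were 9.62% and 32.6%. In other barcodes with Ptprc the ratio was 1.56. T and NK cells also carry the gene, with a UMI in 32.0% and 48.4% of them. Il18r1 (ENSMUSG00000026070) lies on chromosome 1 from 40465552 to 40500854 of mm10, next to Il1rl1, which runs from 40429570 to 40465415.

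Il17rb, a chain of the interleukin 25 receptor, gave 14 UMIs (61.7 CPM) and 37 UMIs (208 CPM), a ratio of 3.37 (1.78 to 6.74), in 11 and 27 cells. Il1rl1, the interleukin 33 receptor, gave 173 UMIs (762 CPM) and 85 UMIs (477 CPM), a ratio of 0.626 (0.477 to 0.816). Both genes took part in the choice of cells, so a cell low in one of them was selected more often when it held the other. Crlf2, a chain of the receptor for thymic stromal lymphopoietin, gave 25 and 7 UMIs in 20 and 7 cells (0.357, 0.130 to 0.848). The interleukin 7 receptor gene Il7r stood at 1080 and 1190 CPM (1.10, 0.913 to 1.33), and Il2ra at 379 and 270 CPM (0.711, 0.489 to 1.02). Il7r and Il2ra also took part in the choice of cells.

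Genes of lipid mediators and lipid storage held the lowest ratio of the comparison. Plin2, which coats cytosolic lipid droplets, gave 84 UMIs in 15 of 51 control cells (370 CPM, 295 to 458) and 2 UMIs in 2 of 64 iAdFASNKO cells (11.2 CPM, 1.36 to 40.6). The ratio was 0.0303 (0.00361 to 0.113). In control the gene was concentrated in 5 cells, which held 11 to 20 UMIs each. At 1500 UMIs per cell the expected shares were 18.1% and 2.21%. In other barcodes with Ptprc the ratio was 0.449. Among these, T cells of Lin- gave 12 and 1 UMIs (0.0506), and NK cells of Lin- went the other way with 4 and 6 (3.30). Over both fractions, a Plin2 UMI was seen in 7.02% of T cells. Plin2 (ENSMUSG00000028494) lies on chromosome 4 from 86648386 to 86670060 on the minus strand.

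Of the 8 tested genes of 25 for lipid uptake and storage, 2 were past 2-fold higher and 2 lower (all tested genes: 9.93% and 5.62%). Besides Plin2 and Fabp4 these were Fabp5, a fatty acid carrier with 30 and 10 UMIs (0.425, 0.185 to 0.893), and Srebf2, the activator of cholesterol synthesis, with 8 and 15 UMIs (2.39, 0.951 to 6.51). Hilpda, an inhibitor of triglyceride breakdown, gave 45 and 23 UMIs (0.651, 0.376 to 1.10). Fasn itself gave 2 UMIs in control and 6 in iAdFASNKO ILC2, too few for a call.

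Ltb4r1, the high-affinity leukotriene B4 receptor, gave 63 UMIs in 31 of 51 control cells (278 CPM, 213 to 355) and 12 UMIs in 10 of 64 iAdFASNKO cells (67.4 CPM, 34.8 to 118). The ratio was 0.243 (0.119 to 0.454), and T cells of the same Lin- libraries had a ratio of 0.303 (18 and 9 UMIs). In all other barcodes with Ptprc it was 0.887. At 1500 UMIs per cell the expected shares of ILC2 were 30.4% and 12.4%. Alox5, the enzyme that starts leukotriene synthesis, gave 33 UMIs in 13 cells and 4 UMIs in 3 cells (0.154, 0.0397 to 0.434), against 0.606 in other barcodes with Ptprc. Ramp1, a subunit of the receptor for calcitonin gene-related peptide, gave 50 and 18 UMIs (0.459, 0.252 to 0.80) and had the same ratio of 0.462 in other barcodes with Ptprc. The prostacyclin receptor Ptgir (24 and 20 UMIs, 1.06) and the leukotriene receptor Cysltr1 (24 and 28 UMIs, 1.49) differed by less than their intervals. In all, 7 of 30 neuropeptide, lipid and hormone receptor genes were tested, with 1 past 2-fold higher and 2 lower (all tested genes: 9.93% and 5.62%). The higher gene was Ptger4, a prostaglandin E2 receptor, with 10 and 16 UMIs (2.04).

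Transcription factors that define ILC2 were close in both libraries. Gata3 and Rora took part in the choice of cells, so their closeness is in part set by the selection. Gata3 stood at 701 and 606 CPM (ratio 0.865, 0.671 to 1.11), Rora at 679 and 573 (0.844, 0.651 to 1.09), Id2, the inhibitor that sets the innate lymphoid fate, at 930 and 848 (0.912, 0.735 to 1.13), and Bcl11b, which keeps ILC2 identity, at 251 and 298 (1.18, 0.799 to 1.75). Each interval includes 1. Of 31 listed factors 20 were tested, with 4 past 2-fold higher and 2 lower (all tested genes: 9.93% and 5.62%). Batf, an AP-1 family factor of lymphocyte activation, gave 21 UMIs in 15 cells and 3 UMIs in 2 cells (0.182, 0.0348 to 0.610). Nfkb1 stood at 1009 and 460 CPM (0.456, 0.350 to 0.590), against 0.926 in other barcodes with Ptprc.

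The 4 higher factors had few UMIs. Tcf7, a factor of lymphoid precursors, gave 11 and 20 (2.32, 1.06 to 5.35), Cbfb 11 and 21 (2.43, 1.12 to 5.59) and its partner Runx3 12 and 20 (2.12, 0.989 to 4.76). Zeb2 gave 3 and 21, a ratio of 8.92 (2.66 to 46.7), and 18 of the 21 lay in mixed barcodes. Maf, short of the fold, gave 66 and 92 UMIs (1.78, 1.28 to 2.47).

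Surface molecules divided in both directions. Klrg1 gave 58 UMIs in 29 of 51 control cells (256 CPM, 194 to 330) and 16 UMIs in 12 of 64 iAdFASNKO cells (89.8 CPM, 51.4 to 146). The ratio was 0.351 (0.189 to 0.620), and 0.434 without mixed barcodes, and at 1500 UMIs per cell the expected shares were 30.3% and 14.4%. A Klrg1 UMI was seen in 2.14% of T cells and 12.6% of NK cells. Cd44, an adhesion receptor of activated lymphocytes, gave 20 and 33 UMIs (2.10, 1.17 to 3.87), and the costimulatory receptor Icos 45 and 53 (1.5, 0.99 to 2.28). Of 30 costimulation and checkpoint genes 14 were tested, with 1 past 2-fold higher, 2 lower (Klrg1 and Tnfrsf25), 11 below a ratio of 1 and a median log2 ratio of -0.74, against -0.06 in other barcodes with Ptprc.

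Itgae gave 12 UMIs in 7 control cells (52.9 CPM, 27.3 to 92.4) and 39 UMIs in 24 iAdFASNKO cells (219 CPM, 156 to 299). The ratio was 4.14 (2.12 to 8.69), with expected shares of 5.41% and 29.1% at 1500 UMIs per cell. In other barcodes with Ptprc, which include those just outside the selection, the ratio was 5.50. Itgb1, the shared chain of many integrins, had a ratio of 3.35 (1.94 to 6.02), which was 2.07 without mixed barcodes. Itgb2, the chain of leukocyte integrins, gave 21 and 5 UMIs (0.303, 0.0894 to 0.827). Ccr2, the receptor for monocyte-attracting chemokines, stood at 807 and 399 CPM (0.494, 0.370 to 0.654), and at 0.611 without mixed barcodes. Of 27 adhesion and homing genes 18 were tested, with 3 past 2-fold higher and 2 lower (all tested genes: 9.93% and 5.62%). The third of the higher genes, Cd9, gave 2 and 20 UMIs, a ratio of 12.7 (3.1 to 112), and 19 of the 20 lay in mixed barcodes.

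**Figure D4:**
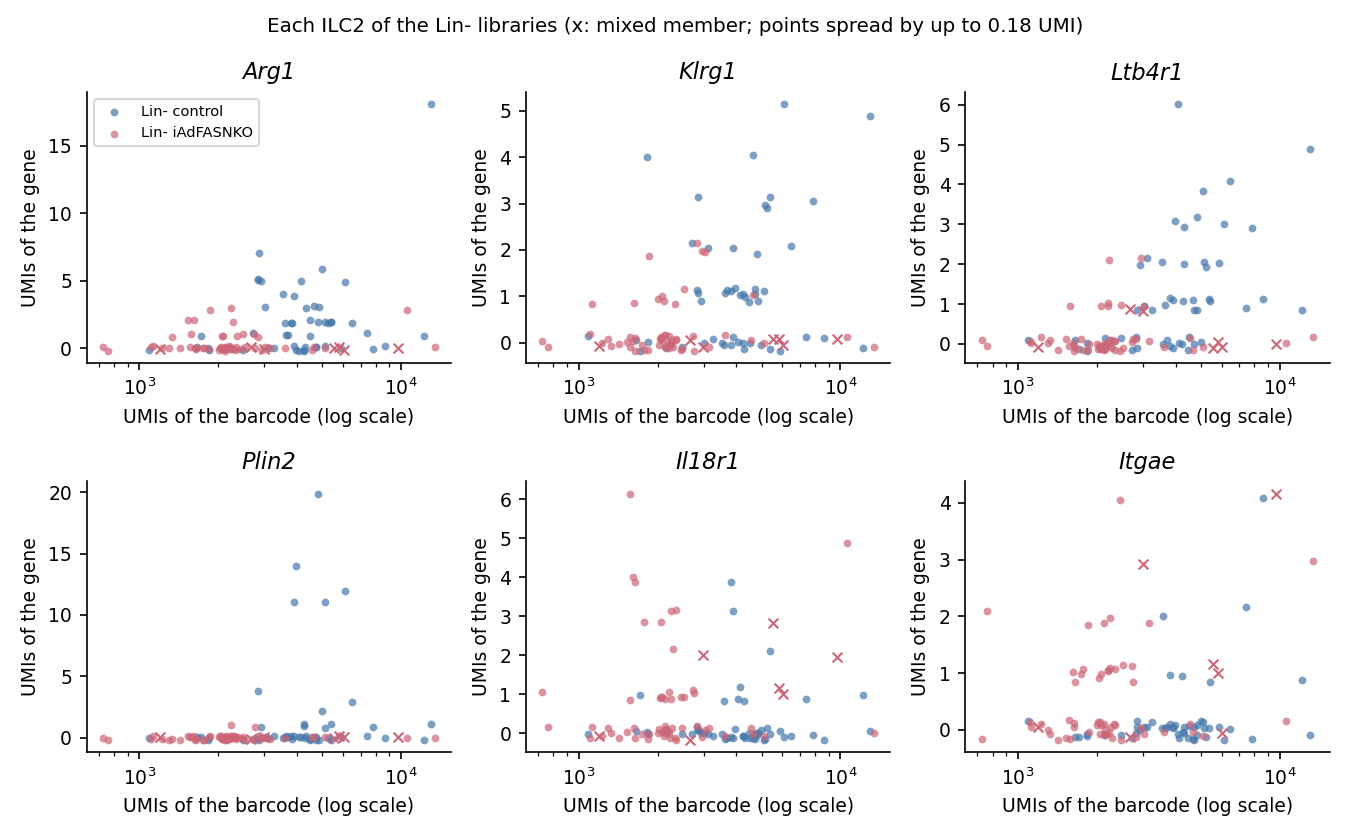
UMIs of 6 genes in each ILC2 of the Lin- libraries (vertical axis) against all UMIs of the barcode (horizontal axis, log scale), control in blue and iAdFASNKO in red, mixed barcodes as crosses. Arg1, Klrg1, Ltb4r1 and Plin2 are seen in more control than iAdFASNKO cells, and Il18r1 and Itgae in more iAdFASNKO than control cells (26 against 10 and 24 against 7), although the control cells are deeper (median 4140 against 2174.5).

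MHC class II genes, which present peptides to CD4 T cells, had higher summed levels in ILC2 of iAdFASNKO and lower ones in the other barcodes with Ptprc. H2-Aa gave 21 UMIs in 3 control cells, 18 of them in 1 cell, and 54 UMIs in 8 iAdFASNKO cells, 29 of them in 1 cell. Its log2 ratio of 1.71 was 0.31 under the stricter cell filter, short of the fold, and was 3.41 without the top cell of each library. H2-Eb1 gave 11 UMIs in 5 cells and 38 UMIs in 14 cells (ratio 4.40, 2.20 to 9.55), and H2-Ab1 8 and 22 UMIs (3.50, 1.5 to 9.10). Cd74, the invariant chain, gave 107 UMIs in 10 cells and 143 UMIs in 28 cells (1.70, 1.32 to 2.21). The median log2 ratio of the 4 tested genes of 7 was 1.76 in ILC2 and -1.35 in the other barcodes. A Cd74 UMI was also seen in 28.1% of T cells and 15.7% of NK cells, and the part of RNA free in the droplets was not tested.

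MHC class I genes lay the other way, with 7 of 8 tested genes below a ratio of 1, all but Tapbp, and a median log2 ratio of -0.41, against -0.53 in the other barcodes with Ptprc. H2-D1 stood at 2230 and 1084 CPM (0.486, 0.410 to 0.575) and H2-K1 at 2367 and 1336 (0.565, 0.483 to 0.659). H2-D1 and H2-Q7 were past 2-fold lower and Tapbp past 2-fold higher, and without mixed barcodes none of the 8 was past 2-fold and the median was -0.29.

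A few ILC2 of each library were in cycle by their transcripts. Mki67 or Top2a was present in 5 control and 11 iAdFASNKO cells, and at least 8 of the 17 proliferation genes in 3 and 5. Top2a, the topoisomerase of mitotic chromosomes, gave 30 UMIs in 3 cells and 80 UMIs in 10 cells (3.40, 2.21 to 5.36). In control 1 cell held 21 of the 30, and in iAdFASNKO 3 cells held 28, 23 and 15 of the 80. The control cell held 12165 UMIs in all, and the 3 iAdFASNKO cells 13421, 10544 and 5107. The log2 ratio of Top2a, 1.76, ranged from 1.13 under the stricter cell filter to 5.41 without T cell transcripts. Mki67 gave 17 and 43 UMIs (3.22, 1.80 to 6.03). Of 11 tested genes 4 were past 2-fold higher and none lower, and the median log2 ratio was 0.54, against 0.78 in other barcodes with Ptprc. Without mixed barcodes, the genes furthest above control were mostly of this kind, with Cenpf (2 and 26 UMIs), Kif23 (2 and 20), Ube2c (8 and 31), Gmnn (3 and 17) and the histone genes Hist1h2ae (27 and 111), Hist1h1d (5 and 25), Hist1h1e (5 and 26), Hist1h4d (12 and 46) and Hist1h2ab (5 and 22). Up to 52 of the 111 Hist1h2ae UMIs came from 1 cell. Dusp2, a phosphatase of activated lymphocytes, gave 2 UMIs and 31 UMIs, 16 of them in 1 cell. Bc1, a small brain RNA, gave 5 and 46, with a like ratio of 10.0 in other barcodes with Ptprc.

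Immediate early and stress genes, which also respond to tissue digestion, were mostly lower in iAdFASNKO. Their median log2 ratio was -0.49 over 28 tested genes, 22 of them below a ratio of 1, 3 past 2-fold lower and 3 higher. The same list stood at -0.53 in other barcodes with Ptprc. Fosb gave 257 and 75 UMIs (0.372, 0.284 to 0.483), Fos 352 and 157 (0.568, 0.468 to 0.688) and Nfkbia 549 and 195 (0.453, 0.382 to 0.534). Of the 157 Fos UMIs 72 lay in mixed barcodes. Without these barcodes Fos passed the fold at 0.380 and Nfkbia fell short of it at 0.548. Most Egr1 and Atf3 UMIs lay in mixed barcodes (42 of 52 and 42 of 59), and their ratios of 13.3 and 5.78 became 3.15 and 2.06 without them.

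Genes of the general cell machinery mostly differed by less than 2-fold. Ribosomal protein genes had a median log2 ratio of -0.38, with 69 of 79 below a ratio of 1. The median was -0.28 without mixed barcodes, and -0.22 in other barcodes with Ptprc. Eef1a1, the elongation factor, had a ratio of 0.467 (0.423 to 0.515), against 0.540, and 0.504 without mixed barcodes. The median log2 ratio of 10 glycolysis genes was -0.26, with 1 past 2-fold higher, and of 4 interferon response genes -0.17, with none past 2-fold.

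**Figure D5:**
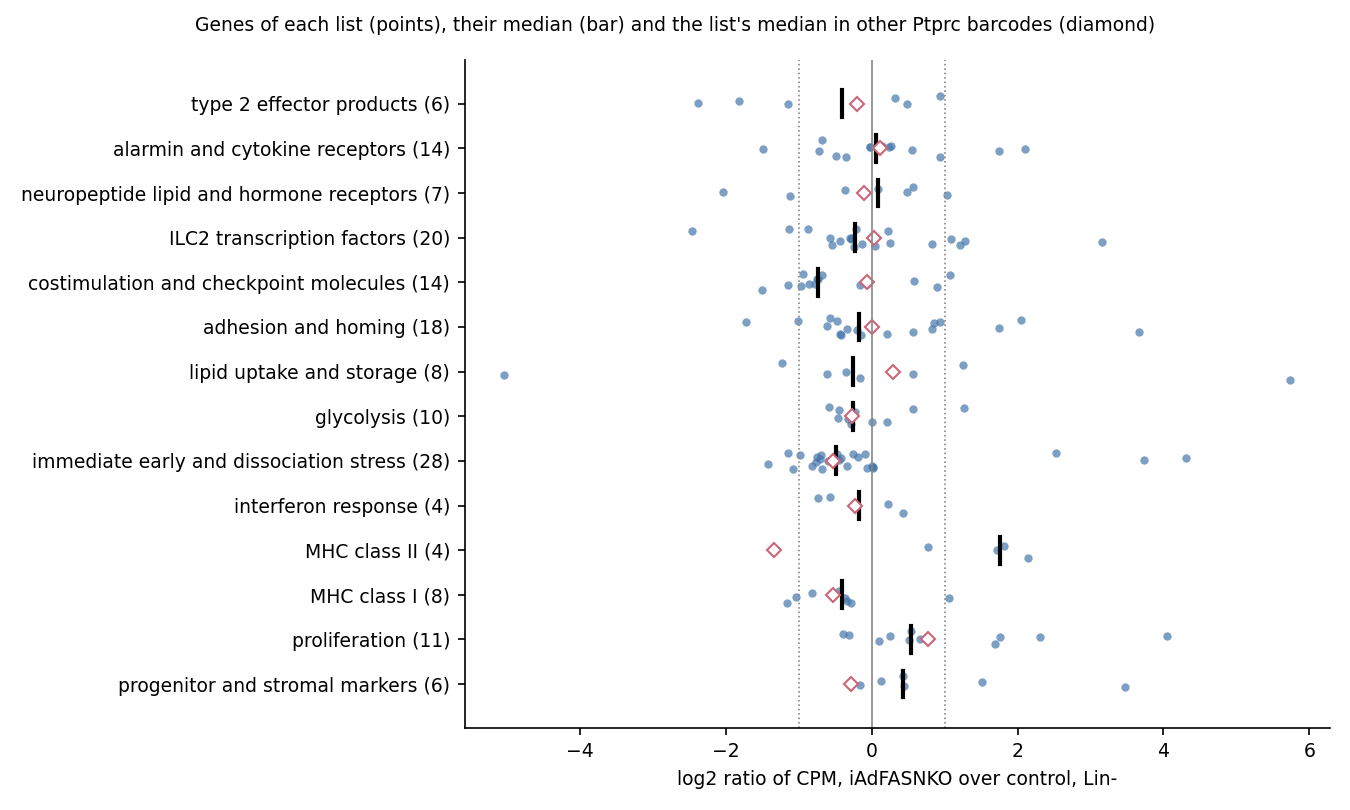
Log2 ratio of CPM, iAdFASNKO over control, for each tested gene of a list in ILC2 of Lin- (points), the list's median (bar) and the median of the same list in other barcodes with Ptprc of the same libraries (diamond); the number of genes is in parentheses and dotted lines mark 2-fold. MHC class II genes lie at a median of 1.76 in ILC2 and -1.35 in the other barcodes, whereas the immediate early list lies at -0.49 and -0.53.

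Other genes lower in iAdFASNKO by the naming rule were Ctla2a, a cysteine protease inhibitor (118 and 28 UMIs, 0.302, with 0.218 in other barcodes with Ptprc, and a log2 ratio of -1.73 that was -0.73 with 3 of the 6 genes required), Stc2, a secreted glycoprotein (32 and 5, 0.199), Dtnbp1 of vesicle traffic (37 and 5, 0.172) and Olfr1259, an odorant receptor gene (43 and 6, 0.178). Gadd45g, a stress sensor (23 and 3, 0.166, 0.0319 to 0.55), joined them once mixed barcodes were left out. Hba-a1, a haemoglobin chain, gave 57 UMIs in 22 control cells and 7 UMIs in 4 iAdFASNKO cells, while Hba-a2 gave 1 and 2 UMIs and Hbb-bs 0 and 1. Over both fractions, an Hba-a1 UMI was seen in 84.8% of T cells and 52.2% of NK cells. Within Lin-, T cells and NK cells held 0 Hba-a1 UMIs in both genotypes, and all other barcodes with Ptprc held 9 and 3. All other barcodes of Lin-, with or without Ptprc, held 397 and 98, a ratio of 0.338, so the direction was not particular to ILC2. The part of free RNA was not tested.

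In Lin+ the same comparison rested on 3 control cells with 5106 UMIs and 2 iAdFASNKO cells with 7389 UMIs. Of 87 genes with at least 20 UMIs, 32 were at least 2-fold higher (36.8%) and 3 at least 2-fold lower (3.45%), and without the cell with most UMIs of each gene 4 of 19 were past 2-fold. Klrg1 gave 3 and 0 UMIs and Arg1 1 and 0, so no direction could be read at this depth. Lin+ and Lin- came from the same pools and are not replicates of each other.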

How the data were processed

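The deposited matrices hold raw UMI counts per gene and barcode, whole numbers without normalization, per the file headers. The submitters' processing notes name Cell Ranger 3.1.0, Seurat 3.0 and the build mm10, and the matrix header gives 3.0.2. Each matrix holds both fractions of 1 genotype. The labels give the barcode tag of each fraction, and the genotype was read from the matrix name. The authors' filter on barcodes is not given in the sources used here. Gene coordinates are those of GENCODE M21.

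The members and gene lists were chosen with earlier results of these data known. UMIs were summed over the ILC2 of a library and divided by their total (CPM). Intervals are exact Poisson for CPM, exact conditional binomial for a ratio, Clopper-Pearson for a share and Katz for a ratio of shares, at 95%. A library at 0 was set to 3 counts for a ratio, which is then a bound. Genes with at least 20 UMIs were tested against 2-fold or 4-fold, without p-values. Genes were named from the lists, or as the 12 furthest from 1 each way by the near bound of the interval, with and without mixed barcodes, and the 20 leading against T or NK cells. The functions were tested on simulated data. Doublets were called with Scrublet (scanpy 1.11.5, expected rate 0.06) and kept, which marked 0.935% to 2.22% of a library. Python 3.11.15, numpy 2.4.6, scipy 1.17.1 and pandas 2.3.3 were used. A few genes are not reported here.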

Additional observations from a re-analysis of the deposited data

Results flagged for a closer look

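For 5 genes the ratio of iAdFASNKO over control in Lin- lay on one side in ILC2 and on the other side in the remaining barcodes with Ptprc of the same libraries, each by at least 2-fold. The difference between the cell groups was not tested, since each group came from 1 library per genotype. H2-Aa had a ratio of 3.28 in ILC2 and 0.317 in the others, H2-Ab1 3.50 and 0.385, and H2-Eb1 4.40 and 0.402. For H2-Aa, 29 of 54 iAdFASNKO UMIs and 18 of 21 control UMIs lay in 1 cell each. Under the stricter cell filter the log2 ratio of H2-Aa was 0.31, and it would not have been listed here. Cd9, a membrane protein of stromal and myeloid cells, had ratios of 12.7 (3.1 to 112) and 0.446, and 19 of its 20 iAdFASNKO UMIs in ILC2 lay in mixed barcodes. Ighm, the immunoglobulin M heavy chain, went the other way, with 0.446 in ILC2 (20 and 7 UMIs) and 5.69 in the others.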

How the results depend on the processing

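No paired analysis was possible because each group is 1 library. Lin- shares kept a ratio below 1 except under the stricter filter (1.26), and every interval but that of Ptprc barcodes included 1. The count of genes past 2-fold in Lin- (437) became 242 with 3 of the 6 genes required, 109 at 50 UMIs or more and 2592 at 1 UMI in each library. In Lin+ (35) it became 7 without T cell transcripts, 4 without the top cell, 21 after dividing by the median, 6 at 50 UMIs and 340 at 1 UMI. The stricter filter and 3 of the 6 genes gave no Lin+ value, since no control cell was left, and a looser filter gave a Lin+ share ratio of 1.2. Against T cells (126) it became 52 in Lin+ alone, 30 in Lin- alone and 83 at 50 UMIs, and against NK cells (124) 5, 60 and 61. Over 58 named genes and 9 settings, 455 of 522 log2 ratios stayed within the interval of the main value, 5 changed sign, and 38, of 22 genes, crossed 2-fold in either direction. Without mixed barcodes Fabp4 and Igfbp7 stood at -0.93, each from 3 and 1 UMIs and so without a direction, and Tagln at -0.22, since most of their UMIs lay in those barcodes. Icos stood at -0.11 with 3 of the 6 genes and Il7r at -0.30 without T cell transcripts, and the cause was not tested. With 3 of the 6 genes Fosb (-0.97), Nfkb1 (-0.69), Nfkbia (-0.84), Ccr2 (-0.65), Ctla2a (-0.73) and Cd44 (0.82) fell short of 2-fold, and Alox5 (-1.64), Ltb4r1 (-1.35) and Plin2 (-3.74) stayed past it. Cd74 passed it without T cell transcripts (1.08). The settings without mixed barcodes, without shared barcodes and with Lin- alone were chosen after seeing the data. Depth limits single genes: 1 UMI is worth several CPM in these sums, and mice were pooled, so no spread between animals is known.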
